A study of Capra hircus with 2 samples.

Results

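The cluster of miR-424 and miR-503 was examined in small RNA of the dairy goat mammary gland, as 7 mature miRNAs: miR-424-5p, miR-424-3p, miR-503-5p, miR-450a-5p, miR-450b-5p, miR-542-5p and miR-542-3p. A tag is a distinct read sequence with its number of copies. To be counted for a member, a tag of 18 nt or more had to start with the mature sequence, or lack no more than 2 of its leading bases, match 18 bases from there exactly and be at most 3 nt longer. In early involution 76 of 259250 distinct tags, with 1230 of 7385833 copies, met this rule, and in early lactation 84 of 305711 distinct tags, with 2256 of 18031615 copies. For involution, the glands were taken 5 days after forced weaning in late lactation, on day 218 after parturition, and for lactation on day 10 after parturition. Each library was made from RNA of 5 goats mixed in equal parts, and the labels name no genotype, strain, treatment or age of the goats. There was 1 library per stage, so no test between stages was possible, and each interval is a 95% interval of counting error alone. Reads carried no molecular identifiers, and weaning cannot be told apart from the time since parturition.

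A miRNA is cut from a hairpin precursor, from whose 5' arm (5p) or 3' arm (3p) it is named, and bases 2 to 8, the seed, select the mRNAs it represses. The members lie close together on the X chromosome of mammals, and in human and mouse miR-424 (called miR-322 in rodents) and miR-503 come from a shared primary transcript. In the mouse mammary gland this pair is induced by TGF-beta, and its loss delays the removal of epithelium after weaning; among its targets are the mRNAs of the survival factor BCL2 and the growth factor receptor IGF1R. In the goat gene table of RefSeq (assembly ARS1.2) 3 symbols matched, MIR450, MIR542 and MIR424, which follow each other on chromosome X with no other gene of the table between them.

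The mature sequences below show which members can share targets. Each was read from the deposited tags (T stands for U), with the seed in capitals.
miR-424-5p: cAGCAGCAattcatgttttgaa
miR-503-5p: tAGCAGCGggaacagtactgcag
miR-542-3p: tGTGACAGattgataactgaaa
miR-542-5p: tCGGGGATcatcatgtcacgaga
miR-450a-5p: tTTTGCGAtgtgttcctaatat
miR-450b-5p: tTTTGCAAtatgttcctgaata
miR-424-3p: cAAAACGTgaggcgctgctat
Bases 2 to 7 are AGCAGC in both miR-424-5p and miR-503-5p, and also in miR-15a, miR-15b, miR-16, miR-195 and miR-497, a family known for repressing cyclin mRNAs. No tag was counted for both a member and another of the 47 miRNAs that were searched.

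The most abundant member differed between the stages. miR-424-5p led in early involution, with 71.4% of all member tags (68.8 to 73.9%), against 26.5% in early lactation (24.7 to 28.3%). miR-542-3p made up 16.7% in involution (14.6 to 18.9%) and led in lactation with 64.2% (62.2 to 66.2%). These shares, and the summed level below, count miR-503-5p by its first 18 bases, with 64 tags in involution and 96 in lactation. Tags with its first 16 bases, described below, numbered 274 in involution and 812 in lactation. The sizes of the shares thus depend on the rule, while the leading member of each library does not. In a tissue library fewer cells of a type cannot be told apart from less RNA per cell. The summed level of the 7 was 167 TPM in involution and 125 TPM in lactation, a ratio of 1.33 (1.24 to 1.43). TPM stands here for tags per 1000000 clean tags. That ratio was 1.01 with median-of-ratios factors and 0.962 with TMM factors, 2 scalings that centre the bulk of tag groups on equality, so its direction depended on the scaling.

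miR-424-5p had 878 tags in involution, or 119 TPM (111 to 127), and 597 tags in lactation, or 33.1 TPM (30.5 to 35.9). The level in involution was 3.59 times that in lactation (3.23 to 3.99). It ranked number 266 among 1322 groups of tags in involution and number 462 in lactation. A tag group holds the tags that share their first 18 bases with an abundant tag of 20 to 24 nt, whatever its name.

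miR-542-3p, known in human cells to repress the mRNA of the apoptosis inhibitor survivin, had 205 tags in involution, or 27.8 TPM (24.1 to 31.8), and 1449 tags in lactation, or 80.4 TPM (76.3 to 84.6). It was 2.90-fold lower in involution (2.50 to 3.37). The 2 most abundant members by this rule therefore stood on opposite sides of equality. There were 4.28 tags of miR-424-5p for each of miR-542-3p in involution (3.67 to 5.01), against 0.412 in lactation (0.374 to 0.454). That quotient was 10.4 times as large in involution (8.66 to 12.5), a value that no scaling between the libraries can alter, though it was 34.6 with tags identical to the mature sequences only.

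A member was called higher with a ratio of 2 or more, and lower with one of 0.5 or less, provided that its interval lay beyond 1 and that it reached 10 TPM in a library. With this limit 2 of the 7 members could be called, miR-424-5p as higher and miR-542-3p as lower. Of 1119 tag groups tested in the same way, 32.4% were higher and 4.11% lower in involution, with a median ratio of 1.32 over the 1092 that had tags in both libraries. Under median-of-ratios scaling 24.4% of the groups were higher and 11.5% lower, and under TMM scaling 23.2% were higher and 13.2% lower. A call of higher was thus common among tag groups, and a call of lower less so under each scaling. Below, shares of all tag groups refer to the groups tested, and medians to those of them with tags in both libraries. The other 5 members stayed under 10 TPM in both libraries when counted by 18 bases. Counted by its first 16 bases, miR-503-5p reached 37.1 TPM in involution and 45.0 TPM in lactation, and was not called.

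**Figure D1:**
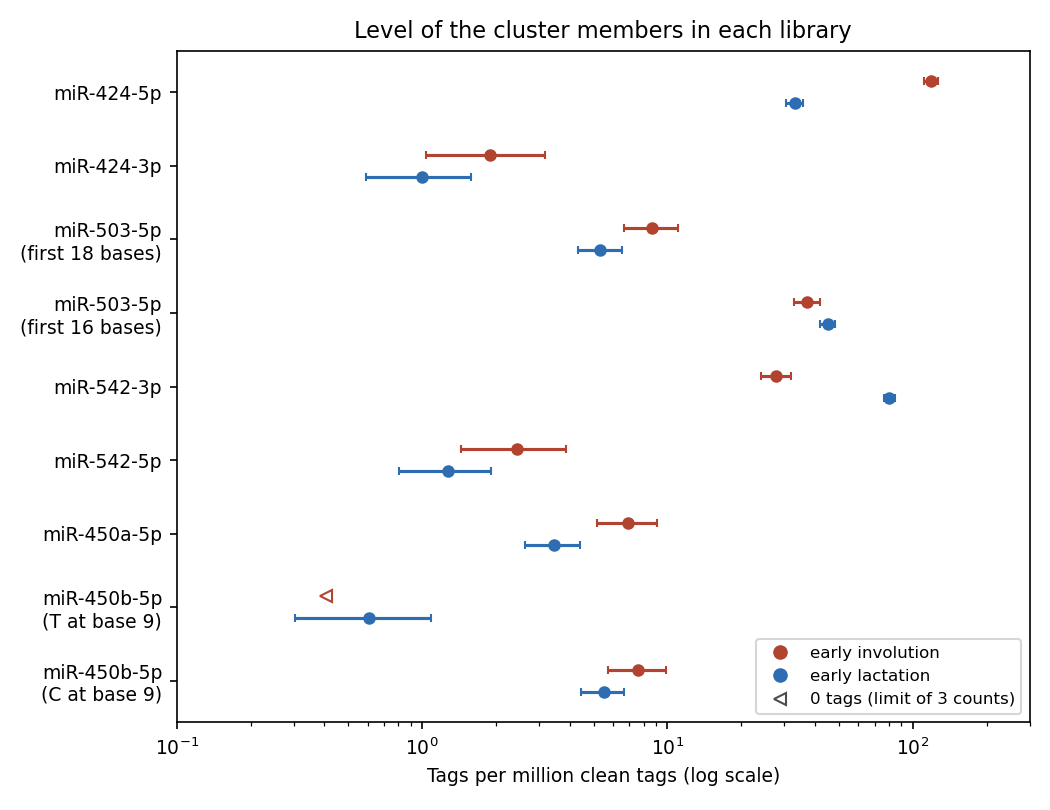
Level of each member in early involution (red, upper point) and early lactation (blue, lower point), in TPM on a log axis, with bars for the 95% Poisson interval. miR-424-5p stands at 119 in involution and 33.1 in lactation, miR-542-3p at 27.8 in involution and 80.4 in lactation, and the open triangle marks the limit of 0.406 where involution had no tag of miR-450b-5p with T at base 9.

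miR-503-5p, the partner of miR-424, gave different answers by how its tags were counted. By the first 18 bases it had 64 tags in involution, or 8.67 TPM (6.67 to 11.1), and 96 in lactation, or 5.32 TPM (4.31 to 6.50), a ratio of 1.63 (1.17 to 2.26). Most tags that carried its first 16 bases left the mature sequence before base 18. Counted by those 16 bases, miR-503-5p had 274 tags in involution, or 37.1 TPM (32.8 to 41.8), and 812 in lactation, or 45.0 TPM (41.99 to 48.2). The ratio then was 0.824 (0.716 to 0.946), on the other side of equality. There were then 3.20 tags of miR-424-5p, still counted by 18 bases, for each of miR-503-5p in involution and 0.735 in lactation. That quotient was 4.36 times as large in involution (3.66 to 5.20). Set against miR-542-3p, also counted by 18 bases, there were 1.34 tags of miR-503-5p in involution and 0.560 in lactation. This quotient was 2.38 times as large in involution (1.94 to 2.93). The ratio of miR-503-5p between the stages thus lay between those of miR-424-5p and miR-542-3p, by a count chosen after its values were seen.

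The tags behind this difference are shown with the bases that depart from the mature sequence in capitals, since those ends carry the finding.
miR-503-5p, tail of 3 nt: tagcagcgggaacagtaAAA
miR-503-5p, tail of 4 nt: tagcagcgggaacagtaGAAA
miR-503-5p, tail of 5 nt: tagcagcgggaacagtaAGAAA
miR-503-5p, intact: tagcagcgggaacagtactgcag
The 3 nt tail had 19 tags in involution and 79 in lactation, the 4 nt tail 15 in involution and 50 in lactation, and the 5 nt tail 8 in involution and 36 in lactation. The intact sequence had 26 in involution and 26 in lactation, although the lactation library was deeper.

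A miRNA end that a nucleotidyl transferase extends is called a tail, and such added bases are often A or U. In 215 of the 274 involution tags of miR-503-5p, 78.5% (73.1 to 83.2%), every base after the departure was A or G, against 672 of 812 in lactation, 82.8% (79.98 to 85.3%). The departure came right after base 17 in 191 of the 215 involution tags and 632 of the 672 lactation tags. The rest kept 18, 19 or 20 bases. Base 17 is itself A, so a tail of A and G that begins at base 17 cannot be told apart from one that begins after it. The tails held A at 79.1% of positions in involution and 82.4% in lactation, and G elsewhere. There were 29 distinct tails in involution and 48 in lactation, of 1 to 6 nt in involution and 1 to 8 nt in lactation, and 4 nt was the commonest length in both. The mean length was 3.47 nt in involution and 4.04 nt in lactation. Tags with all 23 bases numbered 31 in involution and 37 in lactation, a ratio of 2.05 (1.23 to 3.39), whereas the tailed tags were at 0.781 times their lactation level (0.667 to 0.912). Tailed tags per intact tag were thus 6.94 in involution and 18.2 in lactation, a quotient of 0.382 (0.225 to 0.654).

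In the 3 other members for which such ends were counted, miR-424-5p, miR-542-3p and miR-450a-5p, few could be scored as tailed. Tails of A and G of 2 nt or more, placed inside the mature sequence, were seen in 2 of 872 miR-424-5p tags in involution (0.229%) and 3 of 595 in lactation (0.504%). For miR-542-3p there was 1 of 205 tags in involution (0.488%) and 1 of 1453 in lactation (0.0688%). For miR-450a-5p there were 0 of 51 tags in involution and 1 of 62 in lactation, or 1.61%. Over 895 groups of tags that share 16 bases, the median was 0.0188% in involution and 0.123% in lactation. miR-503-5p stood first among them in both libraries, at 72.6% in involution and 80.8% in lactation. The next was an unnamed group with 11.4% in involution and miR-375 with 21.9% in lactation. An unnamed group was set against its own most abundant tag, so one whose tags are mostly tailed would be missed, and this measure was chosen after the values of miR-503-5p had been seen. These shares describe the tags only. Whether the A and G bases were added to the RNA or are copied from another transcript was not tested, since no goat genome sequence was used.

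**Figure D2:**
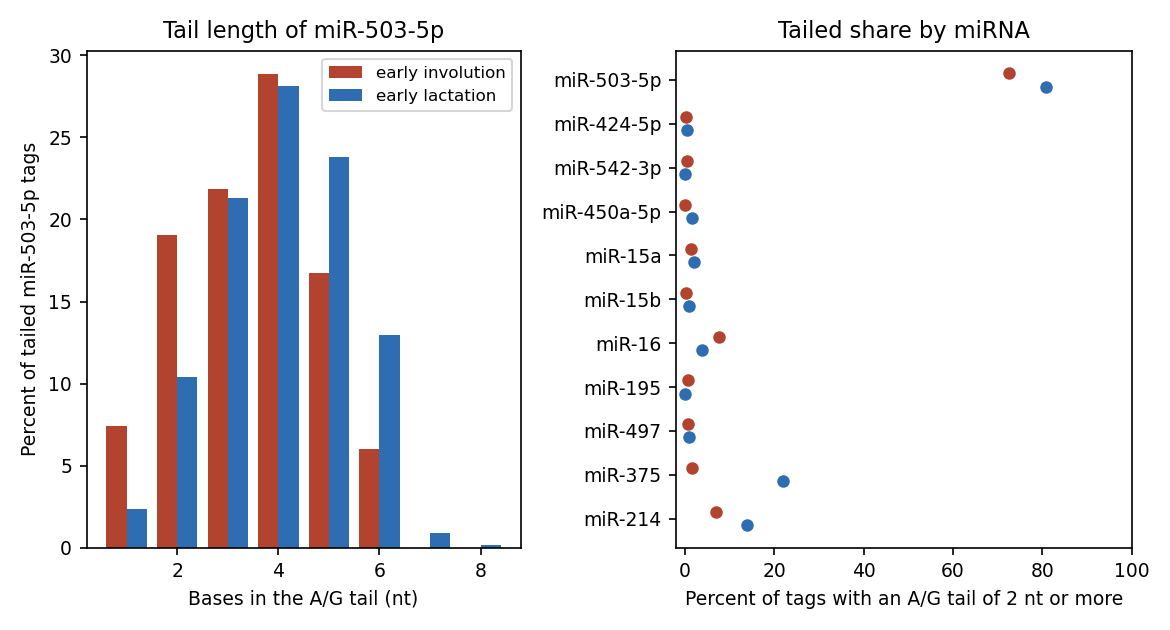
Left, number of bases in the A and G tail of miR-503-5p, as percent of its tailed tags in early involution (red, left bars) and early lactation (blue, right bars). Right, percent of each miRNA's tags with such a tail of 2 nt or more in involution (red, upper point) and lactation (blue, lower point): miR-503-5p is at 72.6% in involution and 80.8% in lactation, and the 10 other miRNAs shown are below 22%.

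Tags with the first 16 bases of miR-503-5p and T at base 17, whatever followed, numbered 4 in involution and 29 in lactation. Against the intact goat sequence above this is written A17T, counted from the 5' end. T at base 17 is the base of human miR-503. The bases after it were not checked, so a changed base was not told apart from an added T. These tags made up 1.46% of the tags with the first 16 bases in involution (0.399 to 3.70%) and 3.57% in lactation (2.40 to 5.09%), and these intervals overlapped.

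The arms of a hairpin were unequal. miR-424-5p made up 98.4% of the tags of its hairpin in involution (97.4 to 99.1%) and 97.1% in lactation (95.4 to 98.3%), so the intervals overlapped. miR-424-3p had 14 tags in involution, or 1.90 TPM (1.04 to 3.18), and 18 in lactation, or 0.998 TPM (0.592 to 1.58). For miR-542 the intervals of the arm shares did not overlap: its 3p arm held 91.9% in involution (87.5 to 95.1%) and 98.4% in lactation (97.7 to 99.0%). miR-542-5p had 18 tags in involution and 23 in lactation, or 2.44 TPM in involution and 1.28 TPM in lactation, with a ratio of 1.91 (0.972 to 3.70), while the 3p arm was lower. The ratio of the 5p arm was 5.52 times that of the 3p arm (2.76 to 10.9), although it rests on few tags. With the 3p arm left aside, the 4 members that had tags in both libraries and stayed under the limit, miR-424-3p, miR-503-5p by 18 bases, miR-450a-5p and miR-542-5p, had ratios of 1.63 to 2.01, and the intervals of miR-424-3p and miR-542-5p included 1.

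**Figure D3:**
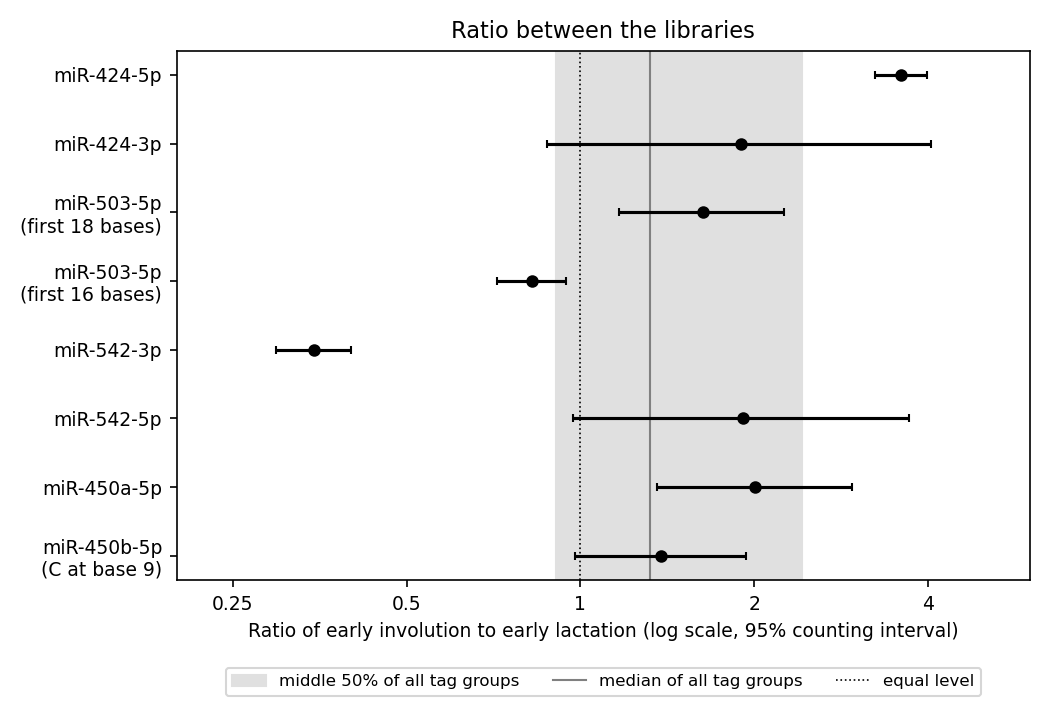
Ratio of early involution to early lactation for the members on a log axis, with 95% counting intervals. miR-450b-5p is shown only by its form with C at base 9, which lies outside the counting rule. The grey band is the middle 50% of the 1092 tested tag groups with tags in both libraries, and the grey line their median of 1.32. miR-424-5p at 3.59 lies above the band, and miR-542-3p at 0.345 and miR-503-5p by 16 bases at 0.824 lie below it.

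The miR-450 members were scarce. miR-450a-5p had 51 tags in involution, or 6.91 TPM (5.14 to 9.08), and 62 in lactation, or 3.44 TPM (2.64 to 4.41), a ratio of 2.01 (1.36 to 2.96). The ratio of miR-424-5p was 1.79 times that of miR-450a-5p (1.20 to 2.68), and the ratio of miR-450a-5p was 5.81 times that of miR-542-3p (3.81 to 8.81). miR-450b-5p in the conserved form shown above had 0 tags in involution and 11 in lactation. Which base goat miR-450b-5p has at base 9 was not settled here, since no goat hairpin sequence was used, so these counts may not be those of the goat miRNA. A count of 0 among 7385833 involution tags allows up to 3 counts, or 0.406 TPM, against 0.610 TPM in lactation (0.305 to 1.09), so the difference is close to the limit of detection.

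A second form of miR-450b-5p was more abundant in both libraries. It differs from the first by T9C, counted from the 5' end, which leaves the seed intact, and its commonest tag is given for comparison.
miR-450b-5p, T9C: tTTTGCAAcatgttcctgaatat
That tag had 23 copies in involution and 35 in lactation. All tags of the T9C form numbered 56 in involution, or 7.58 TPM (5.73 to 9.85), and 99 in lactation, or 5.49 TPM (4.46 to 6.68), a ratio of 1.38 (0.977 to 1.94). If this is the goat sequence, these are the values of the member. Its seed differs from that of miR-450a-5p at 1 base. In involution there were 1.10 tags of the T9C form for each of miR-450a-5p, and in lactation 1.60, a quotient of 0.689 (0.407 to 1.16) whose interval includes equality.

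Tags counted by the rule seldom lacked a base at the start, and their ends varied more. Of the tags counted for miR-424-5p, 99.3% began at its first base in involution and 99.5% in lactation, and miR-542-3p had 1 tag that lacked a base there, in lactation. At the 3' end the commonest tag of miR-424-5p was 1 base shorter than the mature sequence shown, with 635 copies in involution and 536 in lactation. Tags of 21 nt made up 72.9% in involution (69.8 to 75.8%) and 89.8% in lactation (87.1 to 92.1%). Tags of 22 nt made up 12.4% in involution (10.3 to 14.8%) and 4.52% in lactation (3.001 to 6.51%), and tags of 20 nt 10.8% in involution (8.84 to 13.1%) and 5.03% in lactation (3.42 to 7.10%). The lengths of miR-424-5p were thus more even in involution, on both sides of 21 nt. Tags equal to the 22 nt sequence shown numbered 102 in involution and 26 in lactation, a ratio of 9.58 (6.18 to 15.4), so the size of the difference in miR-424-5p depended on which ends were counted. Another 21 involution tags and 0 lactation tags carried 1 to 4 more bases at the start of miR-424-5p.

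For miR-542-3p the intervals of both libraries overlapped at its main lengths. Tags of 20 nt made up 51.7% in involution (44.6 to 58.7%) and 53.0% in lactation (50.4 to 55.6%), and tags shorter than the mature sequence 74.6% in involution (68.1 to 80.4%) and 74.7% in lactation (72.3 to 76.9%). The rule leaves out tags with 1 more base at the start, of which miR-542-3p had many, and these shift the seed by a base.
miR-542-3p, 1 more base: tTGTGACAgattgataactga
With this start there were 57 tags in involution and 349 in lactation. They made up 21.8% of the tags of both starts in involution (16.9 to 27.2%) and 19.4% in lactation (17.6 to 21.3%), and the added base was T in 56 of the 57 involution tags and in all 349 lactation tags.

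**Figure D4:**
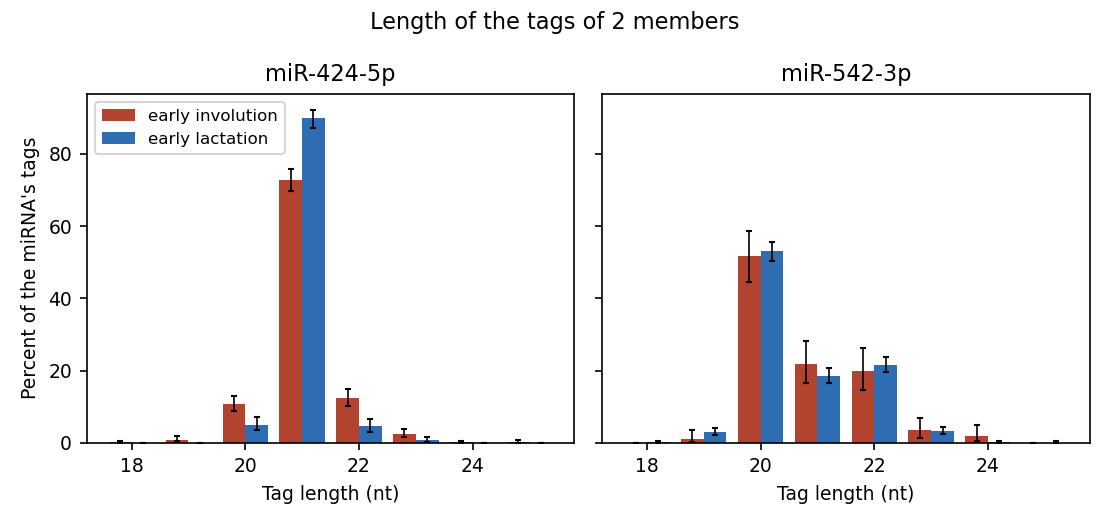
Percent of tags by length for miR-424-5p (left panel) and miR-542-3p (right panel) in early involution (red, left bars) and early lactation (blue, right bars), with 95% exact binomial intervals. miR-424-5p has 72.9% of its involution tags and 89.8% of its lactation tags at 21 nt, while the bars of miR-542-3p at 20 nt are at 51.7% in involution and 53.0% in lactation.

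The relatives of miR-424-5p with the AGCAGC seed had more tags than the cluster. The 5 of them outside the cluster summed to 6260 TPM in involution and 3810 TPM in lactation, and miR-16 alone had 5064 TPM in involution and 3675 TPM in lactation. miR-195 was at 13.7 times its lactation level, miR-15b at 13.1, miR-497 at 6.96 and miR-15a at 6.10, so 4 of 5 were called higher, with a median log2 ratio of 2.80, against 32.4% called higher and a median of 0.40 over all tag groups. The same count of 4 held with median-of-ratios and TMM factors, against 24.4% and 23.2% of all tag groups. miR-16 was not called, at a ratio of 1.38, which was 1.04 under median-of-ratios scaling but 0.996 under TMM scaling. The ratio of miR-424-5p was thus below those of these 4 relatives and above that of miR-16.

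Of 11 other miRNAs that lie on the X chromosome in mammals, 6 were called higher and 0 lower, with a median log2 ratio of 1.23, against 32.4% higher, 4.11% lower and a median of 0.40 over all tag groups. With median-of-ratios or TMM factors 5 were higher, against 24.4% (median-of-ratios) and 23.2% (TMM) of all tag groups. Among 30 named miRNAs that reached 100 TPM and are no members, those with a ratio closest to that of miR-424-5p were miR-361, 0.0067 away on the log2 scale, miR-652, 0.011 away, and miR-142-3p, 0.090 away. With 2 libraries this likeness rests on 1 ratio each.

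The tissue label was checked with miRNAs of known cell types. The 6 epithelial miRNAs summed to 26544 TPM in involution and 20916 in lactation, and 8 stromal and muscle miRNAs to 333397 in involution and 320550 in lactation, nearly all of it miR-143. The 6 leukocyte miRNAs summed to 1771 in involution and 1446 in lactation, with 5 of them called higher, and 3 erythroid miRNAs summed to 3085 in involution and 927 in lactation. The leukocyte sum was mostly miR-155 in lactation, which went against the other 5, with 702 TPM in involution and 1211 in lactation. Among the erythroid miRNAs miR-486 had a ratio of 0.838, against the 2 called higher. Of the 6 epithelial miRNAs 3 were called higher, of the erythroid 2, of the 2 endothelial 1 and of the stromal and muscle 3, and 0 lower in each list, against 32.4% higher and 4.11% lower over all tag groups. The count of the stromal and muscle list, 3 of 8, lies near that share. Those of the epithelial list, 3 of 6, and of the endothelial list, 1 of 2, lie above it but rest on few miRNAs. With median-of-ratios or TMM factors 2 epithelial miRNAs were called higher, and miR-155 and miR-206 were called lower. Of all tag groups, 24.4% were then higher and 11.5% lower with median-of-ratios factors, and 23.2% higher and 13.2% lower with TMM factors. The 2 endothelial miRNAs summed to 7393 in involution and 7750 in lactation, with a ratio of 0.794 for miR-126-3p and 4.23 for miR-126-5p. The part of cell makeup in the levels of the cluster was not tested.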

How the data were processed

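Total RNA of mammary gland, pooled from 5 goats per stage, was size-selected at 18 to 30 nt and sequenced on the Solexa platform, per the labels. The deposited values are raw counts of identical clean reads per tag. Per the deposited readme, the authors filtered reads on quality, cut off the 3' adaptor and took out reads with 5' adaptor, reads that were too short and polyA; the clean tags reached 44 nt. Versions, an aligner and a genome build are not named by the labels or headers.

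A reference table of miRNA sequences was not used here. A member was found by the letters of its start, at most 9 bases known from conserved mammalian miRNAs, and its mature sequence was then read as the most abundant deposited tag of the conserved length with that start. The names therefore rest on those starts. For miR-503-5p the deposited goat tag has A at base 17, and for miR-450b-5p the conserved form was kept. In place of reference miRNAs, 1322 groups of tags sharing their first 18 bases with a tag of 20 to 24 nt served as background and for scaling, after groups 1 mismatch from one over 50 times as large had been dropped; they held 91.0% of tags in involution and 92.1% in lactation. Levels are tags per 1000000 clean tags (TPM). The lactation library was 2.44 times deeper. Intervals are exact Poisson for levels, Clopper-Pearson for shares and conditional for ratios, at 95%. A count of 0 allows 3 counts, 0.406 TPM in involution and 0.166 in lactation. The named miRNAs are the members, the AGCAGC family, an X-linked list, cell type markers and the 3 nearest ratios to miR-424-5p; the tails of miR-503-5p, the T9C form, the extended miR-542-3p and the miR-450 3p-like tags were chosen after their values were seen. The members and lists were chosen with earlier results of these data known. Alternatives changed scaling, assignment, length, depth and the minimum level. The calls and the intervals of ratios were tested on counts simulated with counting error alone, which leaves out differences between pools of goats. Python 3.11.15, numpy 2.4.6, scipy 1.17.1, R 4.3.3 and edgeR 4.0.16 (for TMM factors on the counts) were used.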

Additional observations from a re-analysis of the deposited data

Results flagged for a closer look

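Tags mostly or wholly outside the counting rule gave signal above the 3 counts that a count of 0 allows. The A and G tails of miR-503-5p were carried by 215 tags in early involution and 672 in early lactation. miR-542-3p with 1 more base at the start had 57 tags in involution and 349 in lactation. Tags that begin like the 3p arm of a miR-450 hairpin, with the start of the tag shown, numbered 17 in involution and 19 in lactation. Another start, which differs from it at 1 base, had 6 tags in involution and 2 in lactation, whatever bases followed. Its lactation count lay under the 3 counts, and at least 1 of its involution tags went on unlike the tag shown. For the start shown, the commonest form, of 22 nt, had 7 copies in involution and 6 in lactation. None of these tags was matched to a hairpin here.
miR-450 3p-like tag: aTCGGGAAcattttgcatccat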

How the results depend on the processing

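No paired analysis was possible because each stage has 1 library, and for the same reason no replicate could be left out. The ratio of miR-424-5p, 3.59 as reported, was 2.72 with median-of-ratios factors, 2.60 with TMM factors and 9.58 with identical tags only (102 tags in involution and 26 in lactation). That of miR-542-3p, 0.345 as reported, was 0.262, 0.2497 and 0.273 under the same settings. These factors moved all ratios by -0.40 (median-of-ratios) and -0.47 (TMM) on the log2 scale. The fold of miR-424-5p over that of miR-542-3p was 34.6 with identical tags only. Without a minimum level 2 members were higher, miR-450a-5p being added, and 2 lower, miR-450b-5p being added. With a minimum of 100 TPM 0 were lower. The shares of all tag groups called at these limits were not computed, so these counts cannot be set against a background. Over 12 alternatives the ratio of miR-424-5p stayed between 2.60 and 9.58 and that of miR-542-3p between 0.2497 and 0.356. Some of these could not alter either ratio. No tag was shared with another listed miRNA to be left out, and counting miR-503-5p by 16 bases changed no other member. The ratio of miR-503-5p ran from 0.824, by its first 16 bases, to 2.44, with identical tags, and 1 mismatch gave 0.829. With 1 mismatch miR-450b-5p had 55 tags in involution and 110 in lactation and a ratio of 1.22. Counting by 16 bases and counting 1 more base at the start were chosen after seeing the data. Depth limits the members under 10 TPM by the rule, which rest on 0 to 96 tags a library. The low counts of miR-503-5p and miR-450b-5p also depended on the rule. miR-503-5p had 274 tags in involution and 812 in lactation by 16 bases. The T9C form of miR-450b-5p had 56 in involution and 99 in lactation.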
